A study of Mus musculus with 2 samples.

Results

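The 10 genes described here encode the integrin chains commonly studied on macrophages: Itgb2, Itgal, Itgam, Itgax, Itgb1, Itga4, Itga5, Itgav, Itgb5 and Itgb8. A peak was given to one of them when its summit had an end of that gene as the nearest end of any protein-coding gene, within 100 kb. This gave 45 of the 77060 untreated peaks and 33 of the 37725 R848 peaks, for 10 of 21887 protein-coding genes. Chromatin accessibility had been mapped by ATAC-seq, in which the Tn5 transposase cuts and tags open DNA, in bone marrow-derived macrophages (BMDMs) of wild-type mice. Both libraries came from cells grown from bone marrow with recombinant M-CSF at 20 ng/ml, 1 without treatment (0 h) and 1 given R848, a synthetic ligand of TLR7 (100 ng/ml, 2 h). The strain, the age and the number of mice are not given in the sources used here. With 1 library per group and no replicates, no difference between the lists could be tested, and a peak found in 1 list alone is described as such and not as a change.

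Integrins are surface receptors made of an alpha and a beta chain that bind other cells or the extracellular matrix, and signals inside the cell switch them between resting and ligand-binding states. On macrophages the CD18 chain (Itgb2) pairs with CD11a (Itgal), CD11b (Itgam) or CD11c (Itgax) to bind ICAMs, fibrinogen and complement-coated particles. The beta chain of Itgb1 pairs with those of Itga4 and Itga5 into receptors for VCAM-1 and fibronectin, and the chain of Itgav pairs with those of Itgb5 and Itgb8 to bind vitronectin or latent TGF-beta. In the myeloid lineage, PU.1 (an ETS-family factor) is a known regulator of Itgam and Itgb2.

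Promoter sequences are shown first because several promoter windows lay under a peak of the R848 list and not of the untreated list. RefSeq promoter windows (GRCm38.p6, the assembly of mm10, 250 bases before to 50 bases after the gene start) were found for 8 members, all except Itgal and Itgb2. An R848 peak overlapped 4 of the 8 windows, against 25.2% of all 32851 RefSeq promoter windows, and an untreated peak overlapped 1 of 8, against 18.2%. The window of Itgb1 was under a peak in both lists (16.1% of all windows), and those of Itga4, Itgav and Itgax were under an R848 peak and no untreated peak (3 of 8, against 9.02% of all windows). An untreated peak ended 77 bp from the Itga4 window. When untreated peaks within 500 bp of a window were counted as over it, 2 of 8 were left. The Itgav window (83724147 to 83724446) is not at the annotated start of the gene (83722303) but lies inside the gene. Within 1 kb of an annotated Itgav end lay 1 untreated peak, 301 bp outside the lower end, and no R848 peak. The windows of Itgb1, Itga4, Itgav and Itgax and that of Itgam, which lay under no peak, are printed 5′ to 3′ on the strand of the gene. Capitals mark every match, on either strand, to GAGGAAG (PU.1), TGANTCA (AP-1), TGACGTCA (CRE), GGG and CC with any 5 bases between them (NF-kB-like), GGGCGG (GC box), TTGCNNAA (C/EBP-like), TTCNNNGAA (GAS) or GAAA and GAAA with any 2 bases between them (ISRE).
Itgax, chr7:128129300-128129599, plus strand: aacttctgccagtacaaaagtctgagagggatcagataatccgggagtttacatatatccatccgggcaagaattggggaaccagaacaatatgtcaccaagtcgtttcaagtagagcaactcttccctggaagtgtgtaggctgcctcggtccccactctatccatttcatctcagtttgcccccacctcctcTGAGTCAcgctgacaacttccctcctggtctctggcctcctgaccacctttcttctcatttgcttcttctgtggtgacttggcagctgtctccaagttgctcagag
Itgav, chr2:83724147-83724446, plus strand: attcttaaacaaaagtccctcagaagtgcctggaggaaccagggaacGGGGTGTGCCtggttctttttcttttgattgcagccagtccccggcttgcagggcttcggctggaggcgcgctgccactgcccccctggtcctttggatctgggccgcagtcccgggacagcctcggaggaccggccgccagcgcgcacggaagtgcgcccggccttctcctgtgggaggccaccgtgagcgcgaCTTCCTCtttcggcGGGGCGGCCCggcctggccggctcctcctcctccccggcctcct
Itga4, chr2:79255176-79255475, plus strand: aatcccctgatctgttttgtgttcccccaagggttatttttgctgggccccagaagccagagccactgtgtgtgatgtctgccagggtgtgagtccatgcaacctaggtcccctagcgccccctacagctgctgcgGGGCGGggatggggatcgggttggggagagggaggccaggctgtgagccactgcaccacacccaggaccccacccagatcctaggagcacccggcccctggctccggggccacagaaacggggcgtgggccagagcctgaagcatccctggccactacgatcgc
Itgb1, chr8:128685404-128685703, plus strand: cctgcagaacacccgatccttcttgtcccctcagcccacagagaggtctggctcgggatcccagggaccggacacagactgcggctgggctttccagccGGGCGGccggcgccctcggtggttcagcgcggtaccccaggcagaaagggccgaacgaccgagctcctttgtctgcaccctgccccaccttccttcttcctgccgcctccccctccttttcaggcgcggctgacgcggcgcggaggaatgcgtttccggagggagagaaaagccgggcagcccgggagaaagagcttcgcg
Itgam, chr7:128062390-128062689, plus strand: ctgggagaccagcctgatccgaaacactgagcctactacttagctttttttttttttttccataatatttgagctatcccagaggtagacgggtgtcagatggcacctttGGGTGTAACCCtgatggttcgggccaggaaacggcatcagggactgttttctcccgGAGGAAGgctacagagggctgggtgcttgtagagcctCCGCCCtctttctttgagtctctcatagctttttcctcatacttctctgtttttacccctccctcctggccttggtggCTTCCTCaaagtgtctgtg

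In the Itgax window the R848 peak covered bases 1 to 204, which hold the only capital run there, an AP-1 match at bases 195 to 201. Of all promoter windows, 7.81% hold an AP-1 match of these letters. In the Itgav window the R848 peak covered bases 40 to 300, with a PU.1 match at bases 243 to 249, and with NF-kB-like matches at bases 48 to 57 and 257 to 266, the second of which contains a GC box at bases 258 to 263. The Itga4 and Itgb1 windows were covered whole by their R848 peaks, and each held 1 GC box as its only match. The Itgam window held PU.1 matches at bases 167 to 173 and 282 to 288, a GC box at bases 204 to 209, and NF-kB-like matches at bases 111 to 120 and 112 to 121 that overlap each other. PU.1 matches occur in 13.6% of all windows, NF-kB-like matches in 50.8% and GC boxes in 35.7%, and among the 8 member windows 2, 3 and 6 held them. The ETS core GGAA, not marked, occurs in 96.0% of all windows and in 7 of the 8. No CRE, C/EBP-like, GAS or ISRE match lay in a member window, while 1.79%, 10.8%, 8.30% and 3.44% of all windows hold one. A match describes letters and is not evidence of a bound factor.

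Over the 10 genes, 21 of 33 R848 peaks overlapped no untreated peak (R848-only), or 63.6%, against 66.9% of all 28951 R848 peaks assigned to a gene. Of the untreated peaks, 33 of 45 overlapped no R848 peak (untreated-only), or 73.3%, against 79.8% of all 47840 assigned untreated peaks. The share of member peaks present in both lists was 36.4% (95% Wilson interval 22.2 to 53.4) in the R848 list, against 33.1% over all assigned peaks, and 26.7% (16.0 to 41.0) in the untreated list, against 20.2%. Both intervals hold the value for all assigned peaks, and the shares are near that background. All intervals cover counting error only. Which list held more member peaks depended on the setting. When the untreated list, which is longer, was reduced to as many peaks as the R848 list, keeping the strongest, the members held 20 untreated and 33 R848 peaks, and the order of the totals was turned. It was turned as well with gene ends within 20 kb, at 21 untreated and 22 R848 peaks.

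**Figure D1:**
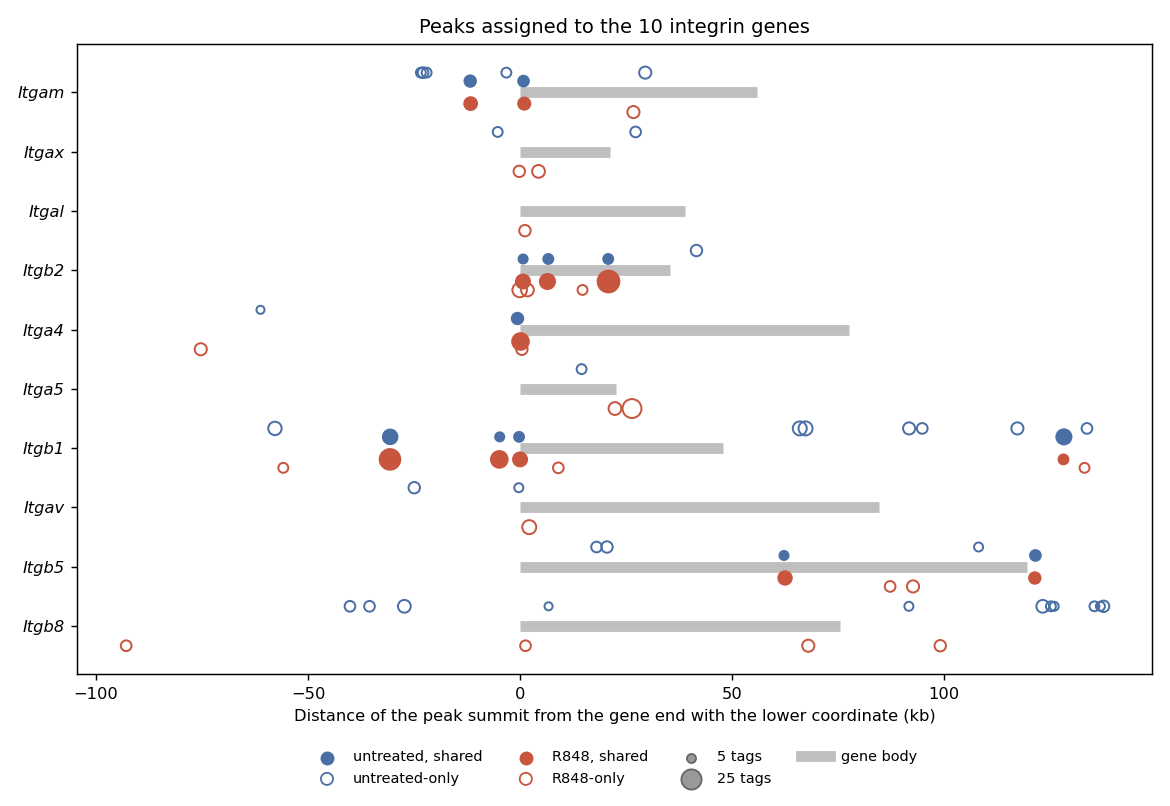
Peaks of the 10 integrin genes. The x axis is the distance of the summit from the gene end with the lower coordinate, in kb, grey bars are gene bodies, blue circles above and red circles below are untreated and R848 peaks, filled circles are shared peaks, open circles (drawn farther from the bar) are found in 1 list alone, and circle area grows with the tags at the summit. The largest circles are R848 peaks of Itgb2 (29 tags), Itgb1 (26 tags) and Itga5 (22 tags), and all circles of Itgb8 are open.

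Every member had an R848-only peak (10 of 10, against 47.2% of all protein-coding genes), and 9 of 10 had an untreated-only peak (against 56.9%). With gene ends within 20 kb, Itgam and Itgb5 had no R848-only peak. Shared peaks lay at 5 members, namely Itgb2, Itgam, Itgb1, Itga4 and Itgb5, against 34.4% of genes with a shared R848 peak and 34.5% with a shared untreated peak. Peaks in both lists with none shared were seen at 4 members, Itgax, Itga5, Itgav and Itgb8, against 18.4% of genes. The count was higher in the R848 list at Itgb2, Itgal, Itga4 and Itga5 (4 of 10, against 21.2% of genes), equal at Itgax, and higher in the untreated list at the other 5 (against 42.4%). With lists of equal length it was higher in the R848 list at 6 members and in the untreated list at 1, at a q of at most 0.05 at 5 and 3, and with gene ends within 20 kb at 4 and 3. The sequence nearest to a member was long (median 102 kb, against 46.5 kb over all genes). Per 100 kb of that sequence, the members had 3.78 untreated and 2.77 R848 peaks, against 2.82 and 1.70 for all protein-coding genes.

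**Figure D2:**
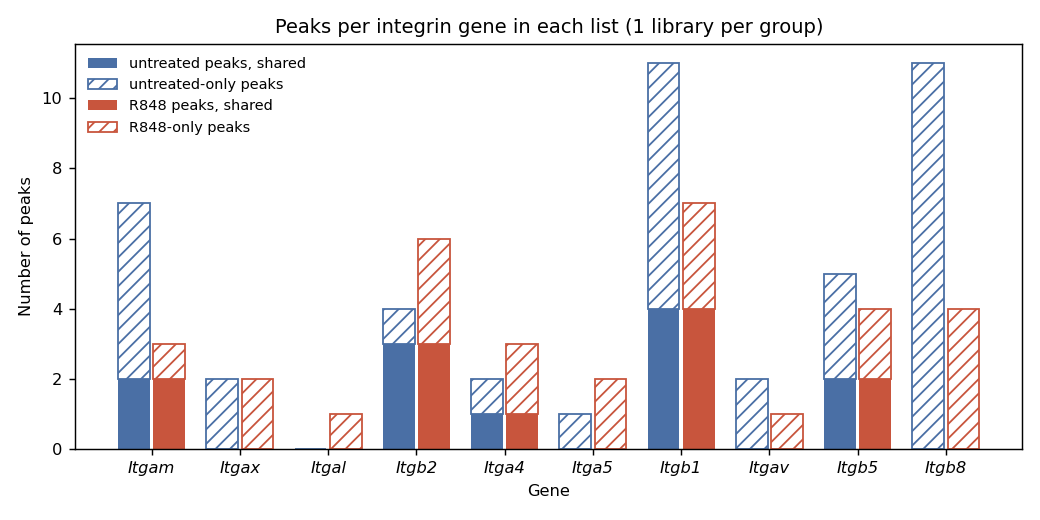
Number of peaks per gene (y axis) for the 10 genes (x axis), in the untreated (blue) and R848 (red) list, with shared peaks filled and peaks of 1 list hatched. Itgb1 and Itgb8 have the most untreated peaks, 11 each, and Itgb1 and Itgb2 the most R848 peaks, 7 and 6.

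**Figure D3:**
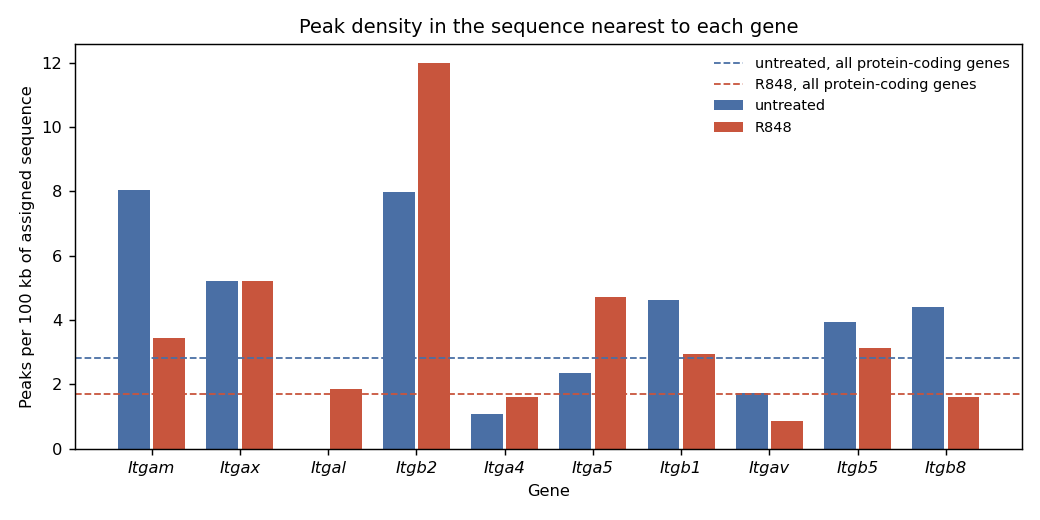
Peaks per 100 kb of sequence nearest to each gene (y axis) for the 10 genes (x axis), with dashed lines at the value for all protein-coding genes, 2.82 untreated and 1.70 R848. Itgb2 is highest in the R848 list at 11.99, and Itgam and Itgb2 are highest in the untreated list at 8.05 and 7.99.

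Single peaks were shallow. The strength of a peak is given here as the tags at its summit, the pileup solved from the authors' fold and p, and as the authors' fold over the background of the same library, which ranks peaks within its own list. Member peaks held 4 to 14 tags in the untreated list, with a median of 7, and 6 to 29 tags in the R848 list, with a median of 9. The medians over all assigned peaks were 7 and 8 tags. Of the member peaks, 62.2% in the untreated and 72.7% in the R848 list had a q of at most 0.05, against 64.4% and 56.8% of assigned peaks. The genome-wide background of the R848 library was 1.40 times that of the untreated library, which reads as relative depth only if the reads of both were extended alike, and the extension is not given in the sources used here. At a −log10 q of at least 5, 7 R848 peaks and 1 untreated peak of the members were left. The R848 peaks were those of Itgb2 (2), Itgb1 (2), Itga5, Itgav and Itga4, and the untreated peak was that of Itgb1.

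The leukocyte integrin genes had their densest set of R848 peaks at Itgb2 (gene ID 16414, chromosome 10, 77530329 to 77565708), the common beta chain. Its 6 R848 peaks lay within 21.3 kb, 5 of them inside the gene, where the gene table used here gives ends but no exons. Going up the chromosome from 98 bp outside the lower gene end, they held 13, 12, 10, 14, 6 and 29 tags. The strongest, at 77550981 to 77551362 and 14530 bp from the upper gene end, had a fold of 9.26 (q = 2.12e-19) and ranked among the top 2.84% of the R848 list. It overlapped an untreated peak of 6 tags and fold 3.37 (q = 0.0554). The 95% exact Poisson intervals were 19.4 to 41.6 tags in the R848 and 2.202 to 13.1 tags in the untreated library, and this was the only shared member peak whose intervals were apart. Tags and intervals are not scaled between the libraries. The local background at this peak was 2.24 tags in the R848 and 1.08 tags in the untreated library. The other shared Itgb2 peaks, 675 and 6446 bp inside the lower gene end, held 12 and 14 tags in the R848 list and 5 and 6 tags in the untreated list. Of the R848-only peaks the strongest was that outside the lower end (77530086 to 77530374, fold 4.90, q = 2.60e-05), 507 bp from the nearest untreated peak. The single untreated-only peak lay 6219 bp beyond the upper end (77571851 to 77572100) with 8 tags and a fold of 4.57. With lists of equal length none of the 6 R848 peaks had an untreated counterpart, since the 3 shared untreated peaks are weak and left the list.

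Itgam (gene ID 16409, chromosome 7, 128062640 to 128118491), the CD11b chain of the complement receptor, had 7 untreated and 3 R848 peaks, 2 of them shared. The untreated peaks held 6 to 9 tags and the R848 peaks 9, 9 and 10. Both shared peaks were alike in tags, with 8 untreated and 10 R848 tags at the peak 11.7 kb outside the lower end (R848 peak 128050815 to 128051089), and 7 and 9 tags at the peak inside the gene (R848 peak 128063304 to 128064079, summit 978 bp from the end). An untreated-only group of 3 peaks with 6, 7 and 6 tags lay between 128039120 and 128040764, 10050 to 11393 bp from the nearest R848 peak. The strongest untreated peak of Itgam was also untreated-only, inside the gene at 128091968 to 128092307 with 9 tags and a fold of 4.67. The R848-only peak, 128089181 to 128089566, held 9 tags (fold 4.24) and lay 2401 bp from it.

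Itgax (gene ID 16411, chromosome 7, 128129526 to 128150657), the CD11c chain and a common dendritic cell marker, begins 11.0 kb above Itgam and shared no peak between the lists. Its R848 peaks were the promoter peak (128129260 to 128129503, 8 tags, fold 3.38, q = 0.0474) and a peak 4348 bp inside the gene (128133737 to 128133964, 10 tags, fold 3.90). Its untreated peaks held 6 and 7 tags and lay outside the gene, 5282 bp below it and 6119 bp above it, with folds of 3.54 and 4.06. Itgal (gene ID 16408, chromosome 7, 127296139 to 127335137), the CD11a chain, had no untreated peak and 1 R848 peak, inside the gene 1147 bp from its lower end (127297173 to 127297402, 8 tags, fold 3.81, q = 0.0137). When peaks were instead counted for all genes with an end inside 50 kb, Itgal had 8 peaks in each list, 3 of the R848 peaks being shared, so the absence of untreated peaks holds only under assignment to the nearest gene end.

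Among the matrix and VCAM-1 receptors, Itgb1 (gene ID 16412, chromosome 8, 128685654 to 128733579), the beta chain of the widest range of integrins, had 11 untreated and 7 R848 peaks. Its nearest protein-coding neighbours, Nrp1 and Ccdc7a, lie 180 and 246 kb away, which leaves it 238 kb of assigned sequence. The 4 shared peaks held 13 and 26 tags at 30.7 kb below the gene, 5 and 17 tags at 4.9 kb below it, 6 and 12 tags at the promoter, and 14 and 6 tags at 80.2 kb above the gene, each given as untreated and then R848. The last was the only shared member peak with fewer tags in the R848 list. The peak at 30.7 kb was the strongest of Itgb1 in both lists (R848 peak 128654304 to 128655191, fold 8.77, q = 5.74e-17; untreated peak 128654338 to 128655203, fold 6.54, q = 1.70e-07). It ranked in the top 3.73% of the R848 and the top 3.52% of the untreated list. The R848-only peaks of Itgb1 were weak, with 6, 7 and 6 tags. Of the 7 untreated-only peaks, 6 lay above the gene, between 128751456 and 128819465, with 7 to 12 tags, and the strongest by fold held 9 tags (128802860 to 128803133, fold 5.08).

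Itga4 (gene ID 16401, chromosome 2, 79255426 to 79333114), the alpha chain of the VCAM-1 receptor, had its strongest R848 peak over the promoter (79254743 to 79255522, 17 tags, fold 5.77, q = 5.69e-08). The untreated peak it overlapped (79254703 to 79255099) held 8 tags, with a fold of 4.57, and its summit lay 546 bp away, so that it ended 77 bp short of the promoter window. The pair shared 357 bp and was not shared when a reciprocal overlap of 50% was asked for. The other R848 peaks held 9 tags at 75.3 kb below the gene and 8 tags 420 bp inside it, and the untreated-only peak held 4 tags. Itga5 (gene ID 16402, chromosome 15, 103344286 to 103366791), the alpha chain of the fibronectin receptor, had the strongest R848-only peak of all members. It lay 3884 bp beyond the upper end of the gene (103370498 to 103370873), which in RefSeq is the end with the promoter window, and held 22 tags with a fold of 8.10 (q = 6.80e-14, top 5.23% of the R848 list). The nearest untreated peak was 11608 bp away. The other R848 peak of Itga5 lay 128 bp inside the same end (103366534 to 103366733, 10 tags, fold 3.93) and 9 bp short of the promoter window, and the only untreated peak was inside the gene with 6 tags.

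Among the genes of the vitronectin and TGF-beta receptors, Itgav (gene ID 16410, chromosome 2, 83722303 to 83806917), the shared alpha chain, had 1 R848 peak, over its promoter window (83724186 to 83724577, 12 tags, fold 5.51, q = 6.16e-06), 2159 bp from the annotated gene end. Its untreated peaks held 8 tags at 24962 bp below the gene (fold 4.57) and 5 tags at 301 bp below it (83721918 to 83722117, fold 3.05), the latter 2068 bp from the R848 peak. Itgb5 (gene ID 16419, chromosome 16, 33829665 to 33949338) had 5 untreated and 4 R848 peaks. The shared peaks held 5 and 11 tags inside the gene (R848 peak 33891766 to 33892275, fold 4.76) and 7 and 8 tags just beyond its upper end (R848 peak 33950935 to 33951266), untreated first. Its R848-only peaks held 7 and 9 tags, the stronger at 33922260 to 33922657, and its untreated-only peaks 7, 8 and 5.

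Itgb8 (gene ID 320910, chromosome 12, 119162803 to 119238276), the chain that presents latent TGF-beta for activation, had 11 untreated and 4 R848 peaks and none in common. The untreated peaks held 4 to 10 tags and 5 of 11 had a q of at most 0.05, and the R848 peaks held 7, 7, 9 and 8 tags. Of the untreated peaks, 6 lay within 14.6 kb between 119285926 and 119300515, beyond the end that holds the promoter window, and 3 within 13.1 kb between 119122624 and 119135763, beyond the other end. No R848 peak lay in either stretch. The strongest in each held 10 tags, with folds of 5.56 and 5.59. The strongest R848 peak was inside the gene (119230580 to 119230965, 9 tags, fold 4.24). The nearest neighbours of Itgb8 lie 196 and 152 kb away, and it had the longest assigned sequence of the members, 250 kb.

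At the 12 shared peaks the tags at the summit were set side by side. They were not scaled for the genome-wide background, which was 1.40 times as high in the R848 library. The R848 peak held more tags in 11 of 12 member pairs, against 63.3% of all 11817 shared pairs, and at least 2 times as many in 8 of 12, against 25.6%. The median ratio of R848 to untreated tags was 2.06 over the members and 1.33 over all shared pairs. Shared member peaks had a median of 12 tags in the R848 list and 6.5 tags in the untreated list. Over all assigned shared peaks the medians were 12 and 9 tags. By these medians the members differed from other shared peaks in the untreated tags and not in the R848 tags. The pairs at or above 2 times were 3 at Itgb2, 3 at Itgb1, and 1 each at Itga4 and Itgb5, and those of Itgam and the other Itgb5 pair lay at 1.14 to 1.29, and the last Itgb1 pair at 0.429. The R848 peak was also wider in 11 of 12, against 57.6% of shared pairs. Unlike the member pairs, the 11817 pairs also include peaks with no gene end within 100 kb. With lists of equal length 6 pairs were left and 2 were at or above 2 times.

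**Figure D4:**
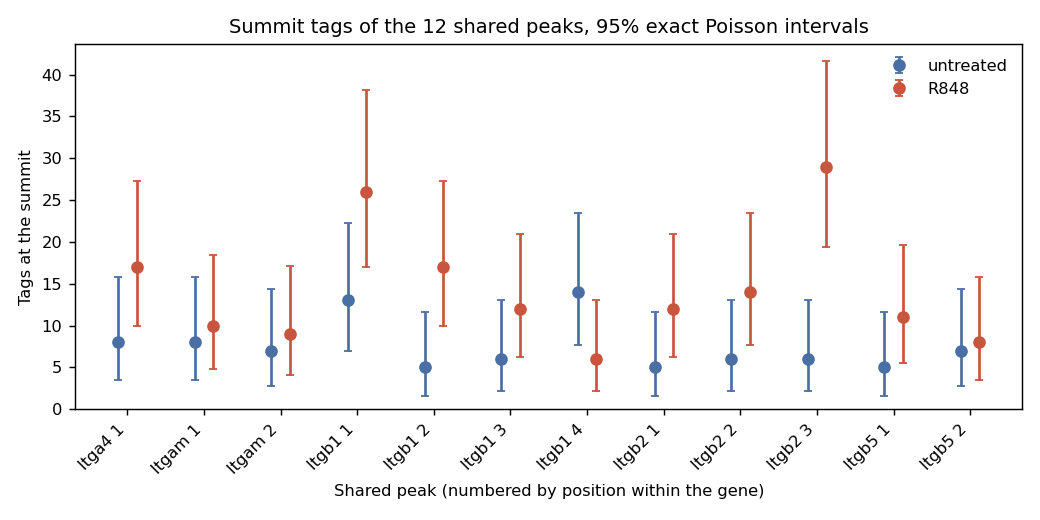
Tags at the summit (y axis) of the 12 shared peaks (x axis, numbered by position within each gene) in the untreated (blue) and R848 (red) library, with 95% exact Poisson intervals as bars. The red point is above the blue one in all but the last Itgb1 pair, and the intervals are apart only at the last Itgb2 pair, 6 and 29 tags. Tags are not scaled between the libraries.

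R848 member peaks lay inside a gene, or close to a gene end, more often than untreated member peaks did, and so did the R848 peaks of all genes. Of the member peaks, 24.4% of the untreated and 54.5% of the R848 peaks had the summit inside the gene, against 36.8% and 46.7% of assigned peaks. Within 1 kb of the gene end lay 11.1% of the untreated and 24.2% of the R848 member peaks, against 13.1% and 27.6%. By gene, an R848 peak lay within 1 kb of an end at 6 members and an untreated peak at 5, against 33.8% and 26.7% of protein-coding genes. The farthest assigned summits were 85781 bp away in the untreated and 92907 bp away in the R848 list, and the first peaks beyond the limit, at 113208 bp (untreated, Itgb1) and 119349 bp (R848, Itga4), held 5 and 6 tags.

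The other genes of the pathway were counted from lists made for their roles. Of 30 activators and adaptors that link integrins to actin and kinases, 24 had an R848-only peak (against 47.2% of all protein-coding genes) and 22 an untreated-only peak (against 56.9%). These came to 69 and 66 peaks, or 2.30 and 2.2 per gene against 0.885 and 1.74 over all genes. Their nearest sequence was also long, with a median of 100.2 kb against 46.5 kb, and per 100 kb of it they had 2.61 untreated and 2.76 R848 peaks against 2.82 and 1.70. R848-only peaks were most frequent at Syk, a kinase downstream of integrins and Fc receptors, with 8, and numbered 5 each at Ptk2b, Parvb, Rapgef1 and Vav3. Untreated-only peaks were most frequent at Vav3 with 9 and at Tln2 and Syk with 7 each. Fermt3, which encodes the kindlin that activates leukocyte integrins, had 2 R848-only peaks and no untreated peak. In the same list Rap1a had 3 R848-only peaks and Rasgrp2 had 1, also with no untreated peak. Fermt3 was singled out after its values were seen, and Rap1a and Rasgrp2 are named because they had the same pattern.

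Of 17 ligand genes, 13 had an R848-only and 12 an untreated-only peak (against the same 47.2% and 56.9% of genes), with 1.18 and 1.41 per gene against 0.885 and 1.74 over all genes. Fn1, which encodes fibronectin, had 4 R848-only peaks, followed by Vcam1, Spp1, Tgfb3 and C3 with 2 each. Untreated-only peaks were most frequent at Tnc with 7, Thbs1 with 4 and Vcam1 with 3. Of the 16 other integrin chains, which include chains of platelets, epithelium and T cells, 9 had an R848-only and 12 an untreated-only peak, beside 47.2% and 56.9% of all genes, with 1.25 and 2.31 per gene beside 0.885 and 1.74. The nearest sequence of these chains was longer, with a median of 69.3 kb against 46.5 kb over all genes. Per 100 kb of it they had 2.53 untreated and 1.505 R848 peaks, shared peaks included, against 2.82 and 1.70. By length of sequence they were thus below all genes in both lists. Itga8 had 5 R848-only peaks and Itga1 and Itga9 had 3 each, while Itga11, Itga8 and Itga6 had 8, 6 and 5 untreated-only peaks. Shared R848 peaks made up 20.0% of R848 peaks at the other chains and at the ligands (5 of 25 peaks each) and 28.1% at the activators, beside 36.4% at the members and 33.1% over all assigned R848 peaks.

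The labelled cell type was checked against marker genes. Of 9 macrophage markers, 8 had an untreated and 9 an R848 peak, against 69.5% and 63.1% of all protein-coding genes. Of 6 T cell markers 2 and 1 had one, with none at Cd3e, Cd3g, Cd8a and Lck. The counts were 2 and 4 of 6 for B cells, 4 and 4 of 7 for neutrophils, 2 and 3 of 4 for dendritic cells, 4 and 6 of 6 for stromal and endothelial cells, and 1 and 1 of 5 for erythroid cells and megakaryocytes. By genes with a peak, stromal and endothelial markers were thus at or near the macrophage markers in the R848 list. Their nearest sequence was longer, with a median of 160.7 kb against 40.5 kb. Per 100 kb of it they had 1.15 untreated and 1.83 R848 peaks, against 3.87 and 3.20 at macrophage markers. Neutrophil markers had 3.59 and 3.19 per 100 kb, and dendritic markers 0.958 and 3.35. A peak near a gene is no measure of its expression. Whether other cells or the depth of each library had a part in the integrin peaks was not tested.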

How the data were processed

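The 2 libraries formed 2 groups of 1, untreated and R848. Reads were processed with bcl2fastq 2.19, Bowtie2 2.2.6 and MACS2 2.2.7.1 on mm10, per the submitters' processing notes; settings, read totals and any shift of insertion sites are not given in the sources used here. Each deposited list gives, per peak, the fold over background, −log10 p, −log10 q, a summit offset and a deposited score that was not used.

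Summit tags n and background b were solved from fold = (n + 1)/(b + 1) and the Poisson tail, within 0.1% of the given −log10 p, for 99.9% of peaks in both lists. On 20000 simulated peaks 100.0% were recovered. Background was 0.968 and 1.36 tags. A peak counted as shared when at least 1 bp of it lay under a peak of the other list; the overlap code was checked against bedtools 2.31.1. Genes were the protein-coding RefSeq genes of GRCm38.p6. Promoter windows and their sequences are RefSeq's. Work was done in Python 3.11.15 (scipy 1.17.1, pandas 2.3.3, numpy 2.4.6; figures with matplotlib 3.10.9).

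No test was run, for want of replicates. Members and gene lists were chosen with earlier results of these data known, and the comparison of tags at shared peaks was added after the peaks were seen. Named were all members, their strongest, gene-end and shared peaks, and per pathway list the 3 genes with the most R848-only and untreated-only peaks, with ties; 1 such gene is not reported here.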

Additional observations from a re-analysis of the deposited data

How the results depend on the processing

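Main values are 21 R848-only peaks, 33 untreated-only peaks, shared shares of 36.4% (R848) and 26.7% (untreated), 9 of 10 members with peaks in both lists, and 8 of 12 shared pairs at or above 2 times in tags. With gene ends within 20 kb the counts were 13 R848-only and 12 untreated-only, and the untreated share was 42.9%. At a q of at most 0.05 there were 21 untreated-only peaks, and 4 of the 7 shared pairs left were at or above 2 times. With a reciprocal overlap of 50%, 5 of 8 pairs were. At a −log10 q of at least 5 there were 6 R848-only and 0 untreated-only peaks, and shares of 14.3% and 100% (of 7 and 1 peaks). There, 1 member had peaks in both lists, and 1 of 1 pair was at or above 2 times. Lists of equal length gave 14 untreated-only peaks, an R848 share of 18.2% and 2 of 6 pairs at or above 2 times. Fewer peaks enter in the 20 kb, q and equal-length settings. The promoter windows under an R848 peak alone, 3 of 8, numbered 2 to 4. A gap of up to 500 bp, the gene holding the summit, and, added after the data were seen, every gene within 50 kb kept the main values within 1.5 times or within the interval of a share. For shared pairs this compared only the number at or above 2 times and not its share. In the order named, these were 8 of 13, 8 of 12 and 9 of 17 pairs. Of 30 counts per member, 30, 29 and 8 stayed within 1.5 times in those 3 settings, and 8 did at a −log10 q of at least 5. No paired analysis was possible because each group has 1 library.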
